A study of Mus musculus with 6 samples.

Results

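The genes described here are the chromatin remodelers, histone methylases and demethylases of the mouse that carry a systematic family symbol: Kmt (lysine methyltransferases), Setd (SET domain proteins), Kdm (lysine demethylases), Tet (5-methylcytosine oxidases), Chd (chromodomain helicases) and Arid (AT-rich interaction domain proteins). They were chosen by symbol alone, as every gene whose name begins with Kmt, Kdm, Chd, Arid or Setd and a digit, or is Tet1, Tet2 or Tet3. This gave 59 of the 23557 genes in the table: 8 Kmt, 9 Setd, 19 Kdm, 3 Tet, 10 Chd and 10 Arid genes. The RNA came from whole tumors grown under the skin of female BALB/c mice, 7 weeks old at inoculation, from 500000 cells of CT26, a colon carcinoma line of the same strain. H89, an inhibitor of protein kinase A and several other kinases, was injected into the peritoneum 2 times a week from day 6 at 10 mg/kg, and the other group received only its vehicle, NaCl. Tumors were removed on day 14, and 3 tumors per group were sequenced. Each tumor came from a mouse of its own. A p-value sets the difference between the 3 and 3 tumors against the spread within the groups, which edgeR estimates with information shared across genes. The comparison asks how transcript levels of established tumors differ under H89.

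Methyl groups on histone lysines are written by methyltransferases and removed by demethylases, and different positions go with different states of a gene: methylation of lysine 4 of histone H3 with promoters and enhancers in use, that of lysine 9, of lysine 27 and of lysine 20 of histone H4 with silent or condensed chromatin. Remodelers of the Chd class and the SWI/SNF complexes, to which several Arid proteins belong, use ATP to slide or evict nucleosomes, and Tet enzymes start the removal of methyl groups from DNA. Many of these proteins are very large, and genes of this class are often mutated or deregulated in colon tumors.

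The total of estimated counts was 29067921, 27067349 and 27883614 in NaCl tumors 1 to 3 and 28548727, 31958793 and 30936962 in H89 tumors 1 to 3. Levels are given as CPM, each gene's estimated count divided by the total of its tumor in units of 1e+06 counts. Fold changes are those of edgeR, which scales the libraries by a trimmed mean (TMM), and log2 fold changes above 0 stand for more transcript in H89 tumors. Libraries of the H89 group differed among themselves: the 13 mitochondrially encoded genes together made 110820 and 100110 CPM in H89 tumors 1 and 2 but 49407 CPM in H89 tumor 3, against 48928, 61621 and 50569 CPM in NaCl tumors 1 to 3. Of 5 carcinoma markers, Krt18 was the most abundant, at 12.7, 13.2 and 23.1 CPM in NaCl tumors and 8.16, 7.98 and 8.79 CPM in H89 tumors, while Epcam and Cdx2, which mark gut epithelium, did not exceed 1.16 CPM in any tumor.

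Most members were expressed, and few passed the edgeR test. Of the 59 genes, 53 had a mean of at least 0.5 CPM and were tested. One of them, Kmt2d, rose in H89 tumors at an edgeR adjusted p under 0.05 and none fell, so that 1.89% were called, where 1.59% of all 13118 tested genes were called in either direction (0.861% higher and 0.724% lower). At an unadjusted p under 0.05, 12 members were higher (22.6%) and 2 lower, beside 13.1% and 11.9% of all tested genes. All 3 H89 tumors lay above all 3 NaCl tumors in CPM for 16 of the 53 (30.2%) and below them for 2, Kmt5a and Arid5a, where the shares among all tested genes were 20.5% and 10.0%. On TMM-scaled CPM, a scale added after the data had been seen, the counts were 13 and 4, beside 15.2% and 15.4% of all genes. The share of calls was therefore near that of the table as a whole, and the members are described below by their levels more than by calls. In bulk tumors, fewer cells of a type and less RNA per cell cannot be told apart.

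The fold changes leaned to the positive side. Of the 53 tested members, 36 (67.9%) had a log2 fold change above 0, as did 50.6% of all tested genes, and their median was 0.14 against 0.0040 for all tested genes. By family the median was 0.29 for the 8 Kmt genes, 0.10 for 8 Setd genes, 0.04 for 16 Kdm genes, 0.46 for Tet2 and Tet3, 0.07 for the 10 Chd genes and 0.10 for 9 Arid genes. With each tumor left out in turn the median ran from 0.23 to 0.36 for the Kmt, 0.03 to 0.12 for the Setd, -0.03 to 0.13 for the Kdm, 0.36 to 0.58 for the Tet, -0.01 to 0.14 for the Chd and 0.07 to 0.17 for the Arid genes, the negative values being those without H89 tumor 3. After a correction of the counts for transcript length and GC content, the median was 0.06 for all members, 0.17 for the Kmt, 0.09 for the Setd, 0.03 for the Kdm, 0.38 for the Tet, 0.0097 for the Chd and 0.05 for the Arid genes, while that of all tested genes was -0.02. The members' median thus lay 0.13 above that of all genes before the correction and 0.08 above it after. A first form of the correction, replaced after its values had been seen because it scaled the libraries 2 times, put the median of all tested genes at -0.08 and turned those of all members (-0.0031), the Kdm (-0.04), the Chd (-0.06) and the Arid genes (-0.01) below 0, while the members again lay 0.08 above all genes. The single values of the tested members ran from -0.47 (Arid5a) to 0.65 (Tet2).

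**Figure D1:**
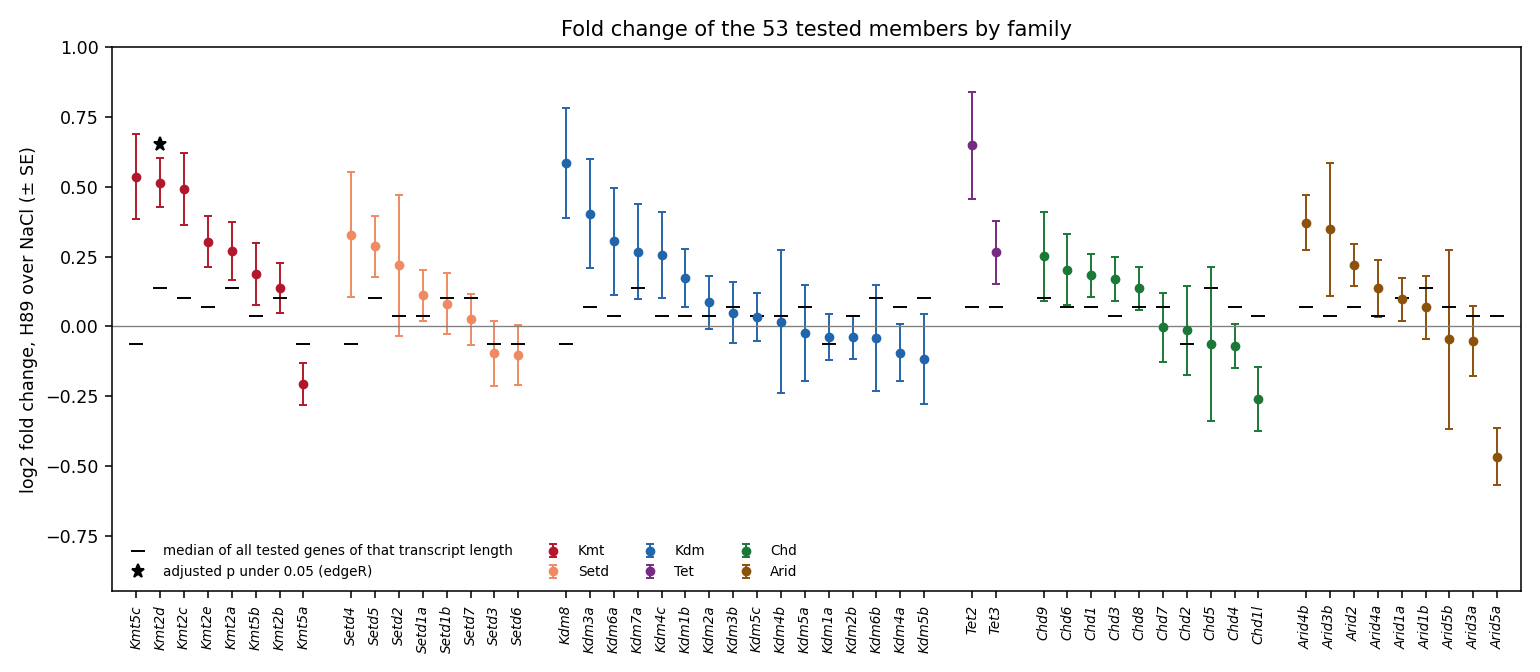
Log2 fold change of H89 over NaCl tumors for the 53 tested members, grouped by family and sorted within it; points with bars are edgeR estimates ± SE from 3 tumors per group, black dashes the median of all tested genes in the same class of transcript length, and the star the member with an adjusted p under 0.05. Of the 8 Kmt genes 7 lie above 0, while the Kdm and Chd genes lie on both sides of it.

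Per kilobase of transcript, which allows levels to be set side by side between genes, the order was led by Kmt5a, which adds the first methyl group to lysine 20 of histone H4, at 133 ± 7.52 CPM per kb (mean and SD over the 6 tumors). Chd4, the ATPase of the NuRD complex, followed at 65.8 ± 3.70 and its relative Chd3 at 50.5 ± 5.00 CPM per kb. Setd3, which methylates a histidine of actin, and Kdm1a, the demethylase LSD1, stood at 39.6 ± 4.77 and 38.7 ± 2.37 CPM per kb, neighbours that did not differ beyond their spread. At the lower end of the tested genes, Kdm5a reached 0.967 and Chd5, a remodeler best known from neurons, 0.513 CPM per kb. The lengths are means over annotated transcripts, so a gene that uses mainly a long or a short form is placed too high or too low.

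The members that were not tested were Arid3c, Kdm4d, Kdm4dl, Kdm5d, Setd9-ps and Tet1. Kdm5d, on the Y chromosome, was at 0 in all 6 tumors, which in this table cannot be told apart from a gene that was not quantified, and Arid3c, Kdm4d, Kdm4dl and Setd9-ps had at most 3 estimated counts in any tumor. Tet1, the Tet enzyme known from embryonic stem cells, had 0.172, 0.370 and 0.254 CPM in NaCl tumors 1 to 3 and 0.917, 0.439 and 0.421 CPM in H89 tumors 1 to 3. Its 3 H89 values lay above the 3 NaCl values, at 5 to 10 estimated counts in NaCl tumors and 13 to 26.2 in H89 tumors. With no filter on low counts its log2 fold change was 1.07 ± 0.49 (SE; edgeR adjusted p = 0.263).

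The Kmt2 genes encode the large methyltransferases that act on lysine 4 of histone H3: Kmt2a and Kmt2b at promoters, Kmt2c and Kmt2d at enhancers, together with Kmt2e, a relative that binds this mark. Kmt2d (minus strand, chr15:98831669-98871204) stood at 145, 144 and 129 CPM in NaCl tumors 1 to 3 and 192, 223 and 214 CPM in H89 tumors 1 to 3. The lowest H89 tumor was well above the highest NaCl tumor, and the log2 fold change was 0.52 ± 0.09 (SE) with an edgeR adjusted p of 0.0427. The call did not withstand the loss of any single tumor: with each left out in turn the log2 fold change was 0.46 to 0.56 and the adjusted p 0.0667 to 0.142, in fits that called between 0 and 12 genes of the whole table. With 3 tumors against 3 an exact two-sided permutation test cannot give less than 0.1, the value it gave for Kmt2d. Under DESeq2 the adjusted p for Kmt2d was 1.3e-04, and after the correction for length and GC content the log2 fold change was 0.46 (edgeR adjusted p = 0.0383). With the replicate number as a block the call was lost, at a log2 fold change of 0.52 (edgeR adjusted p = 0.0640), or 0.46 with the correction added (edgeR adjusted p = 0.0728).

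Kmt2c, the closest relative of Kmt2d, stood at 23.5, 23.7 and 25.6 CPM in NaCl tumors 1 to 3 and 29.2, 34.9 and 43.9 CPM in H89 tumors 1 to 3. The groups did not overlap, but H89 tumor 1 lay close to the NaCl tumors and H89 tumor 3 far above them, and the log2 fold change of 0.49 ± 0.13 (SE) missed the threshold (edgeR adjusted p = 0.0827; DESeq2 adjusted p = 0.0269). Kmt2e stood at 87.2, 79.8 and 87.7 CPM in NaCl tumors 1 to 3 and 96.4, 114 and 121 CPM in H89 tumors 1 to 3. Again no H89 tumor reached down to the NaCl range, with a log2 fold change of 0.30 ± 0.09 (SE) (edgeR adjusted p = 0.105). Kmt2a, the MLL gene of leukemia translocations, stood at 79.9, 78.6 and 86.9 CPM in NaCl tumors 1 to 3 and 86.2, 107 and 118 CPM in H89 tumors 1 to 3. Here H89 tumor 1 lay within the NaCl range and the other H89 tumors above it, with a log2 fold change of 0.27 ± 0.10 (SE). Kmt2b had the smallest difference of the 5, 0.14 ± 0.09 (SE) (0.08 to 0.21 with each tumor left out in turn), from 94.2 ± 6.99 CPM in NaCl to 109 ± 5.54 CPM in H89 tumors (SD, n = 3). All 5 Kmt2 genes therefore had positive fold changes, of which only that of Kmt2d passed the edgeR test. After the correction for length and GC content their log2 fold changes were 0.16, 0.11, 0.36, 0.46 and 0.18 for Kmt2a to Kmt2e in order. Exons of Kmt2a, Kmt2c and Kmt2e overlap those of AC061963.1, Gm42585 and Srpk2 on the other strand, in that order. The sources used here do not say whether reads were counted by strand.

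The promoter of Kmt2d is shown as that of the 1 member called, beside that of Arid5a, the member with the smallest p among those lower in H89 tumors (chosen after the values had been seen). Each line holds the 250 bases before the start given by RefSeq on build GRCm38.p6, 5′ to 3′ on the strand of the gene, minus for Kmt2d (chr15:98871206-98871455) and plus for Arid5a (chr1:36307483-36307732). Capitals mark every match, on either strand, to the GC box, spelled GGGCGG, the box named after its letters CCAAT, the E-box, spelled CACGTG, and the cAMP response element, whose short form is spelled TGACG and whose whole form TGACGTCA contains the short one.
Kmt2d: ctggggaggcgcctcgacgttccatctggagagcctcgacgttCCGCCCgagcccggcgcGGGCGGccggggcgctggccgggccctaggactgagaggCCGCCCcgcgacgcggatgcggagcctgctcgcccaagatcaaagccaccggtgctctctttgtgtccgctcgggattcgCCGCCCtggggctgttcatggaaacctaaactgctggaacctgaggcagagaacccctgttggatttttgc
Arid5a: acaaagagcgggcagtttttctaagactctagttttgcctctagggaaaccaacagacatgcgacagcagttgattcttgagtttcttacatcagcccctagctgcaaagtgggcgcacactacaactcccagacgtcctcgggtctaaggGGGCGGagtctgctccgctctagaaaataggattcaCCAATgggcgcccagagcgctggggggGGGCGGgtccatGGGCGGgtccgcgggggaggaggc
The Kmt2d stretch held 4 GC boxes and no other match, at a GC content of 67.6%. The Arid5a stretch held 3 GC boxes, the nearest beginning 24 bases before the start, and 1 CCAAT box 63 bases before it.

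Among 12 genes of the trithorax core, the subunits that Kmt2 and Setd1 enzymes work with, edgeR called none in either direction and DESeq2 called Dpy30 lower. Of the 12, 8 had positive and 4 negative fold changes. The median log2 fold change was 0.02 (0.0070 to 0.03 with each tumor left out in turn), or -0.03 after the correction for length and GC content. Dpy30, one of the common subunits, stood at 49.0, 51.9 and 51.0 CPM in NaCl tumors 1 to 3 and 41.6, 45 and 41.6 CPM in H89 tumors 1 to 3. All H89 tumors lay below all NaCl tumors, with a log2 fold change of -0.31 ± 0.08 (SE) (edgeR adjusted p = 0.0803; DESeq2 adjusted p = 0.0211). Wdr5, which holds the complex together, had a log2 fold change of -0.21, and Paxip1, which works with Kmt2c and Kmt2d, one of 0.28.

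The 3 Kmt5 genes act on lysine 20 of histone H4, and none of them passed the edgeR test. Kmt5c, which adds further methyl groups in heterochromatin, stood at 43.8, 45.6 and 31.9 CPM in NaCl tumors 1 to 3 and 66.4, 60.6 and 57.2 CPM in H89 tumors 1 to 3. The H89 tumors lay above all NaCl tumors, of which tumor 3 was the lowest, and the log2 fold change was 0.54 ± 0.15 (SE) (edgeR adjusted p = 0.0952). It passed under DESeq2 (adjusted p = 0.0219) and after the correction for length and GC content (0.62, edgeR adjusted p = 0.0436). With the replicate number added to that correction as a block, the call was lost at 0.63 (edgeR adjusted p = 0.0728). Its relative Kmt5b stood at 31.0 ± 3.52 in NaCl and 37.1 ± 4.25 CPM in H89 tumors (SD, n = 3), with overlapping groups and a log2 fold change of 0.19 ± 0.11 (SE), or 0.12 at the lowest with 1 tumor left out. Kmt5a, the most abundant member per kilobase, stood at 234, 244 and 243 CPM in NaCl tumors 1 to 3 and 213, 226 and 218 CPM in H89 tumors 1 to 3. Here the H89 tumors lay below all NaCl tumors by a narrow margin, with a log2 fold change of -0.21 ± 0.08 (SE) that did not pass (edgeR adjusted p = 0.150). Under quantile normalization the value was -0.10.

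**Figure D2:**
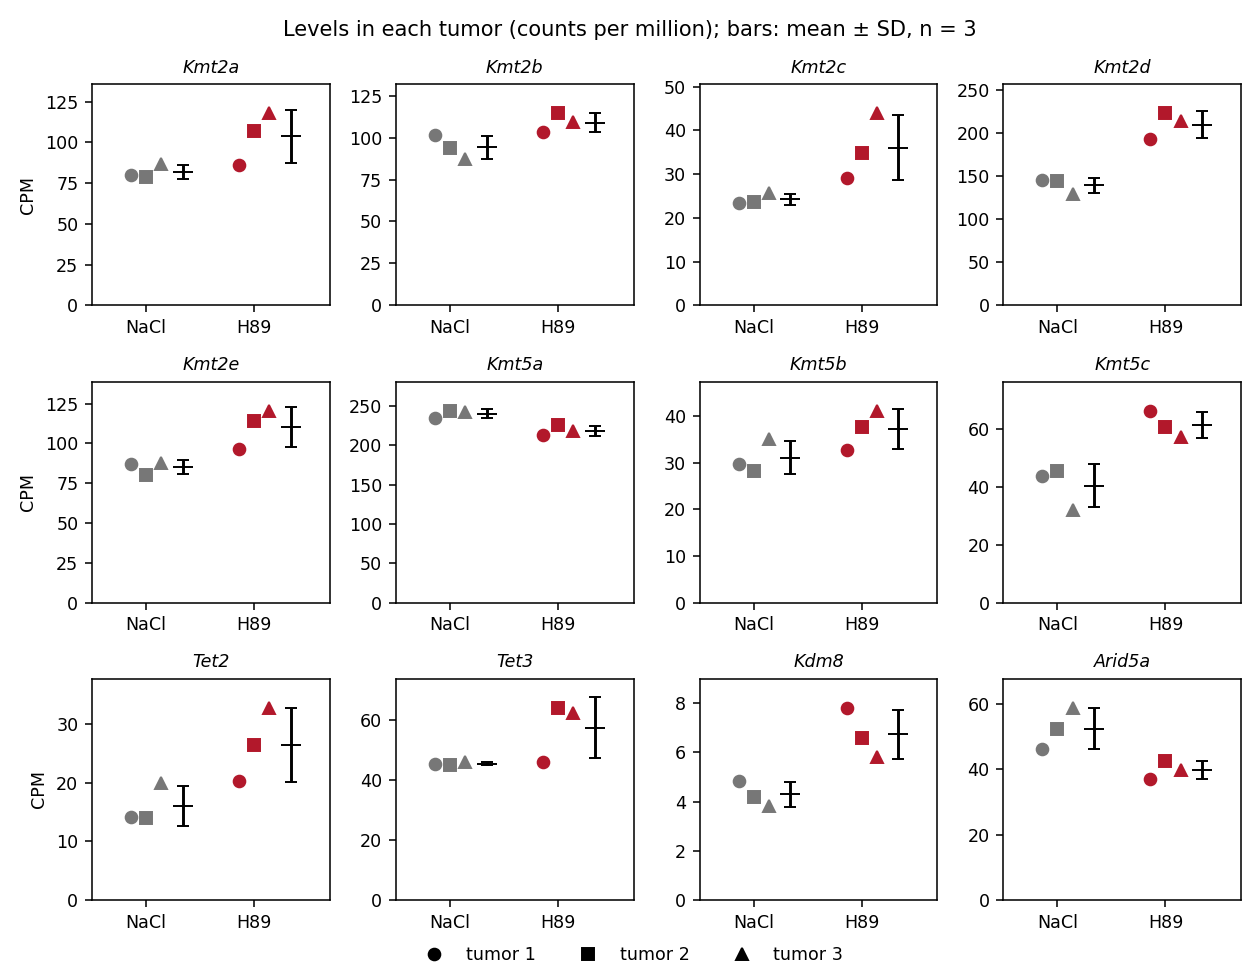
CPM in each tumor of 12 members, NaCl in grey and H89 in red, with the mean ± SD of 3 tumors beside them. Marker shapes give the tumor number, and the labels do not say whether equal numbers pair the groups. Each axis starts at 0. Kmt2d lies between 129 and 145 CPM in NaCl and between 192 and 223 CPM in H89 tumors, whereas Kmt5a and Arid5a lie lower in all H89 tumors.

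Of the Setd genes edgeR and DESeq2 called none, and 6 of the 8 tested had a positive fold change. Setd5, a SET domain protein found with corepressor complexes, stood at 97.2, 89.3 and 101 CPM in NaCl tumors 1 to 3 and 104, 122 and 144 CPM in H89 tumors 1 to 3. The H89 tumors lay above the NaCl tumors and spread widely, with a log2 fold change of 0.29 ± 0.11 (SE) (edgeR adjusted p = 0.160), or 0.18 after the correction for length and GC content. Setd1a, which like the Kmt2 enzymes methylates lysine 4 of histone H3, stood at 89.5, 85.5 and 76.3 CPM in NaCl tumors 1 to 3 and 93.6, 97.8 and 93.7 CPM in H89 tumors 1 to 3. The groups were close, with no overlap in CPM but with overlap on the TMM scale, and the log2 fold change was 0.11 ± 0.09 (SE), or 0.04 without NaCl tumor 3. Setd4, at 4.21 ± 0.83 in NaCl and 5.55 ± 1.32 CPM in H89 tumors, had a log2 fold change of 0.33 ± 0.22 (SE), or 0.18 without H89 tumor 2 and 0.12 under quantile normalization. Setd2, which writes trimethylation of lysine 36 of histone H3, varied as much within a group as between them, from 16.3 to 28.9 CPM in NaCl and from 17.9 to 34.2 CPM in H89 tumors. Setd3, the most abundant of the family per kilobase, and Setd6, which methylates the NF-kB subunit RelA, had the negative values of -0.10 and -0.10. Without H89 tumor 1 that of Setd3 turned to 0.01. That of Setd6 was -0.03 without H89 tumor 3 and -0.0086 after the correction for length and GC content.

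The histone demethylases are the largest of the families. None of the 16 tested was called by edgeR or DESeq2, 10 had positive and 6 negative fold changes, and Kdm8 alone had groups that did not overlap in CPM. Kdm8, a JmjC domain protein, stood at 4.85, 4.17 and 3.84 CPM in NaCl tumors 1 to 3 and 7.81, 6.57 and 5.82 CPM in H89 tumors 1 to 3. Each H89 tumor lay above each NaCl tumor at this low level, with a log2 fold change of 0.58 ± 0.20 (SE) (edgeR adjusted p = 0.129), or 0.37 under quantile normalization. Kdm3a, which removes methyl groups from lysine 9 of histone H3 and responds to hypoxia, stood at 80.7, 57.0 and 78.1 CPM in NaCl tumors 1 to 3 and 79.4, 90.5 and 132 CPM in H89 tumors 1 to 3. Its H89 tumors ranged from within the NaCl values to far above them, tumor 3 being the highest, and the log2 fold change of 0.40 ± 0.19 (SE) was 0.19 without that tumor. Kdm1b, a relative of Kdm1a, stood at 18, 21.5 and 19.0 CPM in NaCl tumors 1 to 3 and 21.3, 24.4 and 23.5 CPM in H89 tumors 1 to 3, with groups that met and a log2 fold change of 0.17 ± 0.10 (SE), or 0.08 after the correction for length and GC content; its exons overlap those of Dek on the other strand. Kdm1a itself stood at 74.9 ± 3.69 in NaCl and 76.8 ± 6.15 CPM in H89 tumors (SD, n = 3; log2 fold change -0.04 ± 0.08 (SE), or 0.0043 without NaCl tumor 1). Kdm6a and Kdm6b, which remove the polycomb mark at lysine 27 of histone H3, had log2 fold changes of 0.31 ± 0.19 (SE) and -0.04 ± 0.19 (SE). With each tumor left out in turn they ran from 0.13 to 0.50 and from -0.20 to 0.14, and that of Kdm6a was 0.17 after the correction for length and GC content. The lowest value of the family was -0.12 ± 0.16 (SE) for Kdm5b, which erases methylation of lysine 4, from 17.0 to 26.1 CPM in NaCl and 18.6 to 22.7 CPM in H89 tumors. It turned to 0.04 without NaCl tumor 3 and was -0.23 after the correction for length and GC content.

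Both tested Tet genes had positive fold changes. Tet2, the Tet enzyme most often mutated in blood cancers, stood at 14.2, 14.0 and 19.9 CPM in NaCl tumors 1 to 3 and 20.2, 26.4 and 32.8 CPM in H89 tumors 1 to 3. NaCl tumor 3 and H89 tumor 1 nearly met, and the other H89 tumors were higher. This gave the largest log2 fold change of the tested members, 0.65 ± 0.19 (SE) (edgeR adjusted p = 0.101, DESeq2 adjusted p = 0.0246). After the correction for length and GC content that of Tet2 was 0.53 (edgeR adjusted p = 0.0871), below Kdm8 (0.64) and Kmt5c (0.62). Tet3 stood at 45.3, 44.9 and 46.0 CPM in NaCl tumors 1 to 3 and 45.9, 64.1 and 62.4 CPM in H89 tumors 1 to 3. Its 3 NaCl tumors and H89 tumor 1 were nearly equal and only H89 tumors 2 and 3 were higher, with a log2 fold change of 0.27 ± 0.11 (SE). Of 8 other genes of DNA methylation edgeR called none in either direction and DESeq2 called Mbd4 higher, and their median was 0.18. Mbd4, a glycosylase that repairs deaminated methylcytosine, stood at 7.99, 9.40 and 8.40 CPM in NaCl tumors 1 to 3 and 11.7, 12.6 and 13.1 CPM in H89 tumors 1 to 3. Its groups did not overlap, with a log2 fold change of 0.47 ± 0.12 (SE) (edgeR adjusted p = 0.0813; DESeq2 adjusted p = 0.0369). Dnmt1, which maintains DNA methylation, had a log2 fold change of -0.02 (-0.07 to 0.03 with each tumor left out in turn).

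Among the chromodomain helicases, 5 fold changes were positive and 5 negative, and edgeR and DESeq2 called none. Chd1, which binds methylated lysine 4 of histone H3, stood at 59.2, 66.3 and 67.5 CPM in NaCl tumors 1 to 3 and 72.3, 75.3 and 82.7 CPM in H89 tumors 1 to 3. The H89 tumors lay just above the NaCl tumors, with a log2 fold change of 0.18 ± 0.08 (SE), which was 0.06 after the correction for length and GC content and -0.0088 in its first form. Chd3 stood at 161, 164 and 149 CPM in NaCl tumors 1 to 3 and 178, 189 and 193 CPM in H89 tumors 1 to 3. No H89 tumor lay in the NaCl range, with a log2 fold change of 0.17 ± 0.08 (SE) (edgeR adjusted p = 0.229). Chd4, the more abundant NuRD ATPase, did not differ by more than its spread in CPM, at 289 ± 7.54 in NaCl and 289 ± 24.6 CPM in H89 tumors (SD, n = 3). On the TMM scale all its H89 tumors lay below all NaCl tumors. Its log2 fold change of -0.07 ± 0.08 (SE) was -0.03 without H89 tumor 1 and 0.05 under quantile normalization. Chd1l, a remodeler drawn to sites of DNA damage, had the lowest value of the family, -0.26 ± 0.11 (SE), or -0.16 without NaCl tumor 3, at 25.4 ± 3.34 in NaCl and 22.2 ± 1.46 CPM in H89 tumors. Its groups overlapped in CPM, while on the TMM scale all H89 tumors lay below all NaCl tumors.

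The other subunits of NuRD, a complex that joins Chd3 or Chd4 with deacetylases, numbered 11, and 8 of them had negative fold changes. Their median was -0.09 (-0.15 to -0.08 with each tumor left out in turn). None was called by edgeR, and DESeq2 called Gatad2a and Mta1 lower. Gatad2a, a scaffold of the complex, stood at 191, 191 and 172 CPM in NaCl tumors 1 to 3 and 159, 151 and 150.1 CPM in H89 tumors 1 to 3. All H89 tumors lay below all NaCl tumors, with a log2 fold change of -0.34 ± 0.09 (SE) (edgeR adjusted p = 0.0878; DESeq2 adjusted p = 0.0118). A list of 14 remodeler genes held the ISWI and INO80 classes together with Atrx and Hells, which belong to neither class. Of the 14, 13 were tested and edgeR called none, while DESeq2 called Baz2b and Atrx higher. Of the 13, 10 had positive fold changes, and the median of 0.11 turned to -0.02 after the correction for length and GC content. With each tumor left out in turn this median ran from -0.01 to 0.16. Baz2b, an ISWI partner, stood at 26.0, 23.9 and 26.8 CPM in NaCl tumors 1 to 3 and 30.8, 38.8 and 42.2 CPM in H89 tumors 1 to 3. The H89 tumors lay above the NaCl tumors, with a log2 fold change of 0.47 ± 0.11 (SE) (edgeR adjusted p = 0.0764; DESeq2 adjusted p = 0.0201).

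The Arid family held the tested member with the lowest fold change. Arid5a, which binds and stabilizes inflammatory transcripts such as that of interleukin-6, stood at 46.2, 52.2 and 58.8 CPM in NaCl tumors 1 to 3 and 37.1, 42.4 and 39.7 CPM in H89 tumors 1 to 3. All H89 tumors lay below all NaCl tumors, with a log2 fold change of -0.47 ± 0.10 (SE) that missed the threshold (edgeR adjusted p = 0.0627). It was called lower by DESeq2 (adjusted p = 0.0034) but not after the correction for length and GC content (-0.46, edgeR adjusted p = 0.0770), whose first form had called it (-0.52, edgeR adjusted p = 0.0473). Its relative Arid5b stood at 13.7, 25.8 and 42.7 CPM in H89 tumors 1 to 3, which enclosed the NaCl range of 24.1 to 29.3 CPM. Arid4b, a subunit of the Sin3 corepressor, stood at 27.4, 28.7 and 32.6 CPM in NaCl tumors 1 to 3 and 39.8, 37.1 and 43.5 CPM in H89 tumors 1 to 3. The groups were apart, with a log2 fold change of 0.37 ± 0.10 (SE) (edgeR adjusted p = 0.0857; DESeq2 adjusted p = 0.0459), or 0.22 after the correction for length and GC content (edgeR adjusted p = 0.186); its exons overlap those of Ggps1 on the other strand.

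The Arid subunits of SWI/SNF are Arid1a and Arid1b of the BAF complex and Arid2 of PBAF. Arid2 stood at 63.9, 65.1 and 63.8 CPM in NaCl tumors 1 to 3 and 71.8, 82.2 and 81.9 CPM in H89 tumors 1 to 3. The NaCl tumors were nearly equal and the H89 tumors higher, with a log2 fold change of 0.22 ± 0.07 (SE) (edgeR adjusted p = 0.125), or 0.12 after the correction for length and GC content. Arid1a stood at 103, 101 and 99.6 CPM in NaCl tumors 1 to 3 and 103, 116 and 121 CPM in H89 tumors 1 to 3. H89 tumor 1 was as good as level with the NaCl tumors, and the log2 fold change was 0.10 ± 0.08 (SE), or 0.05 after the length and GC correction and -0.01 in its first form. Arid1b had 0.07 ± 0.11 (SE), which turned to -0.01 after the correction and ran from -0.04 to 0.17 with each tumor left out in turn. Of 23 other SWI/SNF subunits, 22 were tested and edgeR called none, while DESeq2 called Bcl7b, Bcl7c and Dpf2 lower. Of the 22, 12 had negative fold changes (median -0.08, or -0.03 after the correction and -0.09 to -0.04 with each tumor left out in turn). Bcl7b, a small accessory subunit, stood at 78.5, 70.6 and 72.3 CPM in NaCl tumors 1 to 3 and 61.2, 59.2 and 59.2 CPM in H89 tumors 1 to 3. All H89 tumors lay below all NaCl tumors, with a log2 fold change of -0.37 ± 0.09 (SE) (edgeR adjusted p = 0.0729; DESeq2 adjusted p = 0.0085). Smarca4, the ATPase, had a log2 fold change of -0.13.

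The remaining partner classes held no gene called by edgeR, while DESeq2 called Nsd1 higher and Smyd5 and Hdac5 lower. Among 22 polycomb genes the median log2 fold change was 0.04, or -0.03 after the correction for length and GC content, which called Cbx7 higher (edgeR adjusted p = 0.0436). The polycomb median ran from -0.01 to 0.03 with each tumor left out in turn. Eed, which reads the polycomb mark at lysine 27 of histone H3, stood at 26.0, 29.1 and 29.1 CPM in NaCl tumors 1 to 3 and 38.0, 35.3 and 37.6 CPM in H89 tumors 1 to 3, with groups apart and a log2 fold change of 0.33 ± 0.09 (SE) (edgeR adjusted p = 0.0876). Ezh2, which writes that mark, had 0.04 (-0.04 to 0.08 with each tumor left out in turn), which turned to -0.04 after the correction. Among 15 methyltransferases with other symbols the median was 0.0063 (0.01 to 0.09 with each tumor left out in turn), or -0.05 after the correction. Setdb1, which silences repeats through lysine 9 of histone H3, stood at 71.1, 72.9 and 70.3 CPM in NaCl tumors 1 to 3 and 86.7, 93.2 and 90.2 CPM in H89 tumors 1 to 3. Its groups were apart, with a log2 fold change of 0.26 ± 0.07 (SE) (edgeR adjusted p = 0.0878). Among 13 acetyltransferases the median was 0.14, and Ep300, the coactivator p300, stood at 83, 87.9 and 84.1 CPM in NaCl tumors 1 to 3 and 97.8, 109.5 and 120.4 CPM in H89 tumors 1 to 3. The H89 tumors were higher, with a log2 fold change of 0.29 ± 0.08 (SE) (edgeR adjusted p = 0.0890). Among 14 deacetylases outside NuRD the median was -0.02 (-0.04 to 0.0065 with each tumor left out in turn), or 0.0079 after the correction. Hdac5, a deacetylase that kinases move out of the nucleus, stood at 93.6, 71.5 and 76.3 CPM in NaCl tumors 1 to 3 and 57.4, 61.7 and 67.8 CPM in H89 tumors 1 to 3. The H89 tumors were lower, with a log2 fold change of -0.44 ± 0.12 (SE) (edgeR adjusted p = 0.0883; DESeq2 adjusted p = 0.0169). Over all 130 partner genes tested, edgeR called none in either direction and DESeq2 called 4 higher and 8 lower. Their median was 0.04 (0.01 to 0.05 with each tumor left out in turn), or -0.02 after the correction. At an unadjusted p under 0.05 in edgeR 15 were higher (11.5%) and 13 lower (10.0%), beside 13.1% and 11.9% of all tested genes. DESeq2 called 5 members higher (Arid4b, Kmt2c, Kmt2d, Kmt5c and Tet2) and Arid5a lower. Among the 13118 genes that passed the filter, as did these members, it called 634 higher and 757 lower. Of all 18837 genes with a count, those below the filter included, it called 3.37% higher and 4.02% lower.

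The members are long, and fold changes in the table as a whole went with length. The median transcript length of the tested members was 4.26 kb, against 2.22 kb for all tested genes, and the median genomic span was 67.6 kb against 23.4 kb. Across 13082 tested genes with a length, the log2 fold change went with transcript length at a Spearman rho of 0.21 (0.11 to 0.32 with each tumor left out in turn) and with GC content at -0.24 (-0.34 to -0.13). Across the 53 members rho was 0.12 (0.07 to 0.17) with transcript length, 0.17 (0.13 to 0.23) with that of the longest transcript, 0.17 (0.0040 to 0.27) with genomic span and -0.24 (-0.36 to -0.04) with GC content. These values are across genes, which are not independent replicates.

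In classes of transcript length, the median log2 fold change of all tested genes went from -0.06 under 2 kb (5721 genes) through 0.04 at 2 to 4 kb, 0.07 at 4 to 6 kb and 0.10 at 6 to 8 kb to 0.14 over 8 kb (203 genes). With each tumor left out in turn these medians ran from -0.10 to -0.03, 0.03 to 0.06, 0.02 to 0.12, 0.04 to 0.18 and 0.06 to 0.23. The medians of the members in the same classes were -0.03 (8 genes), 0.12 (16 genes), 0.18 (15 genes), 0.10 (9 genes) and 0.27 (5 genes), with ranges of -0.07 to 0.08, 0.07 to 0.16, 0.14 to 0.25, 0.07 to 0.17 and 0.12 to 0.36. After the correction the members' medians were -0.03, 0.07, 0.08, 0.08 and 0.06. Of the 53 members, 31 lay above the median of their class, and the median difference from it was 0.07. By family 7 of 8 Kmt genes lay above it, with a median difference of 0.19, as did both Tet genes, 4 of 8 Setd, 8 of 16 Kdm, 6 of 10 Chd and 4 of 9 Arid genes. Kmt2d exceeded the median of its class by 0.38, Kmt2c by 0.39, Tet2 by 0.58, Kmt5c by 0.60 and Kdm8 by 0.65. The last 2 of these have mean transcript lengths of under 2 kb, with longest transcripts of 2.77 kb for Kmt5c and 2.39 kb for Kdm8. Arid5a lay 0.50 below its class (a difference of -0.50). The correction for length and GC content called 2 members higher, Kmt2d and Kmt5c, and none lower, where it called 1.18% of all tested genes higher and 1.23% lower. Its first form called the same 2 higher and Arid5a lower, beside 0.999% and 3.68% of all tested genes.

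**Figure D3:**
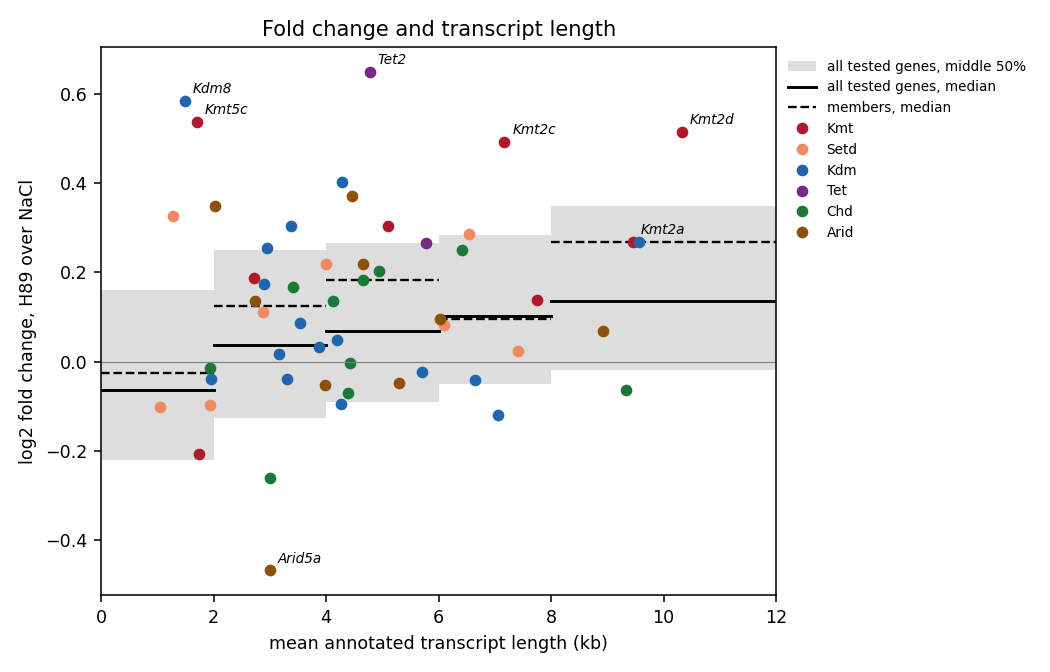
Log2 fold change of each tested member against the mean length of its annotated transcripts in kb, colored by family; solid and dashed lines are the medians of all tested genes and of the members within each length class, and grey boxes the middle 50% of all tested genes. The median of all tested genes goes from -0.06 under 2 kb to 0.14 over 8 kb, and Kmt2d, Kmt2c, Tet2, Kmt5c and Kdm8 lie above the grey boxes.

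The tumors of the H89 group did not contribute alike. Measured as the log2 difference of TMM-scaled CPM from the mean of the NaCl tumors, the median of the 53 members was -0.0032, 0.15 and 0.23 in H89 tumors 1 to 3, and 0.01, -0.04 and 0.04 in NaCl tumors 1 to 3. H89 tumor 1 thus lay within the NaCl tumors and H89 tumors 2 and 3 above them. For the Kmt genes the values were 0.15, 0.33 and 0.39 in the H89 tumors, all above the NaCl range of -0.04 to 0.03, and for the Kdm genes they were -0.03, 0.03 and 0.21. Without H89 tumor 3, the members' median log2 fold change was 0.07.

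Transcript length went with the same tumors. Across genes, the level in a tumor relative to the mean of all 6 tumors went with transcript length at a rho of -0.20, -0.22 and -0.04 in NaCl tumors 1 to 3 and of -0.20, 0.28 and 0.35 in H89 tumors 1 to 3. H89 tumor 1 was therefore like NaCl tumors 1 and 2 in this respect. Genes whose symbols begin with Rpl or Rps and a digit, pseudogenes (-ps) left out, were taken for cytosolic ribosomal protein genes. This symbol rule does not keep out other genes so named, such as those of S6 kinases (Rps6k). The genes so listed, with a median transcript length of 0.78 kb, summed to 64127, 62403 and 70993 CPM in NaCl and 52912, 48599 and 52108 CPM in H89 tumors. Of 99 such genes 91 were tested, and 10 fell and none rose at an edgeR adjusted p under 0.05 (59 and none in DESeq2, 5 and none after the correction for length and GC content), with a median log2 fold change of -0.38, while Rpl10l, Rps12l1 and Rps27 were at 0 in every tumor. Of RNAs retained in the nucleus, 1 of 7 listed was in the table, Snhg11, at 7.46 ± 0.86 in NaCl and 8.67 ± 2.26 CPM in H89 tumors (SD, n = 3). The 10 proliferation genes, led by Top2a, summed to 1654 ± 112 CPM in NaCl and 1799 ± 119 CPM in H89 tumors, with none called by edgeR or DESeq2. The part of transcript length and of these gene classes in the members' fold changes was not tested beyond the correction given above.

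**Figure D4:**
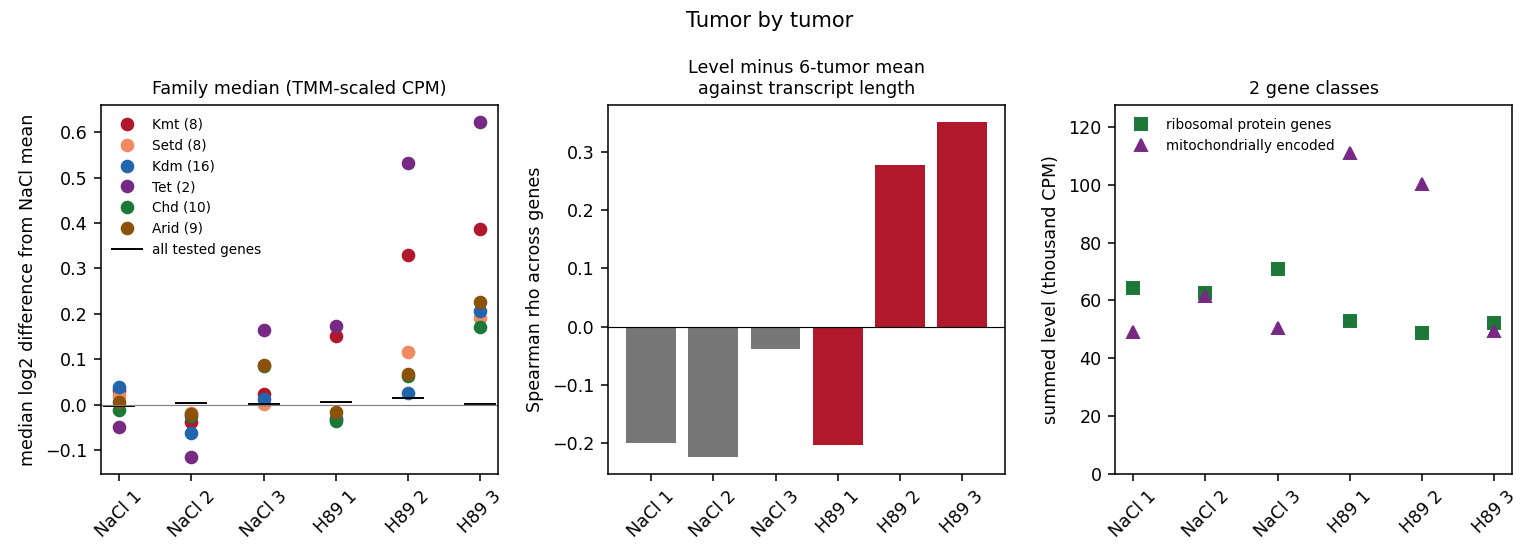
Left, the median over each family of the log2 difference from the NaCl mean in each tumor (TMM-scaled CPM, number of genes in brackets), with dashes for all tested genes. Middle, Spearman's rho across genes between transcript length and the level relative to the 6-tumor mean. Right, summed levels of genes with Rpl or Rps symbols (labeled ribosomal protein genes) and of mitochondrially encoded genes, in the CPM unit on the axis. H89 tumors 2 and 3 have rho of 0.28 and 0.35, and H89 tumor 1 has -0.20.

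Markers of the cells a tumor can hold were summed to show how its makeup varied, and edgeR called none of them, while DESeq2 called Cd3d, Cd3g, Ncr1, Klre1 and Csf3r higher and Kcnj8 and Krt18 lower. The 5 T cell markers in the table, led by Cd8a, summed to 17.2, 10.5 and 8.82 CPM in NaCl and 29.8, 18.3 and 49.6 CPM in H89 tumors, and the 3 NK cell markers, led by Ncr1, to 6.19, 3.76 and 2.02 CPM and 11.8, 6.70 and 16.9 CPM. In CPM all H89 tumors lay above all NaCl tumors in both sums, by little in H89 tumor 2. Of the single genes this held for 1 of the 5 T cell markers and 2 of the 3 NK cell markers. On the TMM scale it held for 0 and 1 of them. The 4 macrophage markers, led by C1qa, summed to 719 ± 171 CPM in NaCl and 803 ± 114 CPM in H89 tumors, and the 3 fibroblast markers, led by Col1a1, to 812 ± 85.0 and 1036 ± 122 CPM (SD, n = 3). The 3 endothelial markers, led by Cdh5, summed to 98.2 and 81.0 CPM and the 3 pericyte markers, led by Pdgfrb, to 114 ± 17.7 and 124 ± 15.4 CPM. The pericyte sum follows Pdgfrb (log2 fold change 0.24), while Rgs5 (-0.50, and -0.77 to -0.17 with each tumor left out in turn) and Kcnj8 (-1.95) had negative values. The 4 neutrophil markers, led by Csf3r and with Ly6g at 0 in every tumor, summed to 12.7 and 20.4 CPM, a sum that follows Csf3r (log2 fold change 0.90) while S100a8 (-0.85, range -2.05 to -0.43) and S100a9 (-0.70, range -2.90 to -0.0094) had negative values, and the 3 B cell markers, led by Cd79a, to 0.734 ± 0.24 and 1.45 ± 0.71 CPM. Skeletal muscle markers, led by Acta1, reached 14.3 CPM in H89 tumor 1 and at most 1.34 CPM elsewhere, and adipocyte markers, led by Adipoq, reached 1.93 CPM in H89 tumor 1 and at most 0.259 CPM elsewhere. The keratinocyte markers, led by Krt10, summed to 2.71 ± 0.71 and 3.47 ± 0.30 CPM and the 5 carcinoma markers to 18.7 ± 6.18 and 11.9 ± 0.73 CPM. The carcinoma sum follows Krt18 (log2 fold change -1.04), while Krt8 had 1.03 (range 0.22 to 2.77) and Cdh1 0.05 (range -0.23 to 0.66). Their part in the members' fold changes was not tested.

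The promoters of the members were compared with those of all tested genes for the letters named above, in windows from 250 bases before to 50 bases after each RefSeq start, both strands counted. A member or tested gene counts if any of its windows holds a match. The share of all windows counts each window singly, those of untested genes included, so its unit differs from the shares of genes. Of the 59 members, 42 had at least 1 window, among them Arid3c, Kdm4d, Kdm5d and Tet1, which were below the filter for testing. The whole cAMP response element, the site of the transcription factor CREB that protein kinase A activates, was in none of the 42, against 3.45% of 10375 tested genes and 1.79% of all 32851 windows. Its short form TGACG was in 12 of the 42 (28.6%), among them Kmt5c, Tet2 and Arid4b, against 34.3% of tested genes and 20.8% of all windows. The GC box was in 30 (71.4%) against 66.8% and 35.7%, the CCAAT box in 18 (42.9%) against 43.0% and 37.4%, and the E-box in 2, Kdm4c and Kdm6a (4.76%), against 11.4% and 7.15%. A match describes the letters of a window, and the absence of one says only that these letters are not in it.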

How the data were processed

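Total RNA of frozen tumors was sequenced by the authors on the BGISEQ-500 platform. The deposited table, named after TPM, holds estimated counts per gene symbol, read as such from tumor totals of 27067349 to 31958793 and from 58.6% to 61.4% of the values above 0 lying within 0.01 of a whole number. The submitters' processing notes name GRCm38, kallisto and DESeq2 without their roles; strand use is not given in the sources used here. From these counts CPM were computed here, and edgeR 4.0.16 (R 4.3.3) was run on counts rounded to whole numbers (TMM, quasi-likelihood test, Benjamini-Hochberg adjustment over 13118 genes with a mean of at least 0.5 CPM). The SE was taken from the F statistic, as fold change (log2) over its root. One count is 0.0313 to 0.0369 CPM, and intervals for counting error were not added to the spread between tumors. The fits were also run on simulated counts, the outcome of which is not given here. Lengths and positions come from GENCODE M21 on GRCm38, which may not be the authors' annotation, matched by symbol for 23434 of 23557 genes and 58 of 59 members. The correction for length and GC content is a loess curve (span 0.5) per tumor on TMM-scaled values, used as an offset; a first form that scaled the libraries a second time was replaced after its values had been seen. Alternatives included DESeq2 1.42.0 and limma 3.58.1. Genes named are members with an adjusted p under 0.05 and, per family, the 3 with the smallest p, the most abundant per kilobase and the one with the lowest fold change; per partner list, those called (at most 3) or the one with the smallest p. Others were named after their values had been seen. Members and lists were chosen with earlier results of these data known.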

Additional observations from a re-analysis of the deposited data

How the results depend on the processing

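The members' median kept its sign under every alternative but 1, at 0.07 to 0.16 with 1 tumor left out, 0.06 under the length and GC correction and 0.21 and 0.20 in limma with pseudocounts of 0.1 and 1, on CPM without TMM scaling. The exception is the first form of that correction, fitted on unscaled CPM so that TMM scaled the libraries again; it was run first and replaced after its results had been seen. It gave medians of -0.0031 for the members, -0.0392 for Kdm, -0.0566 for Chd, -0.0138 for Arid and 0.10 for Kmt, -0.0138 for Arid1a and -0.0088 for Chd1, with 2 members called higher and 1 lower and 614 genes called (21.3% higher). All 24 named members kept their sign under median ratio normalization, no filter, DESeq2, limma-voom, the replicate block and the correction as used. Chd4 and Kdm1a turned to 0.0497 and 0.0109 under quantile normalization, and Kdm8, Kmt5a and Setd4 moved to 0.37, -0.10 and 0.12. Without 1 tumor Kdm1a ranged from -0.0880 to 0.0043, Kdm5b from -0.27 to 0.0437, Setd3 from -0.18 to 0.0121, Setd4 from 0.18 to 0.48, Chd1l from -0.33 to -0.16, and the Kdm and Chd medians from -0.0292 to 0.13 and from -0.0116 to 0.14. Members called numbered 5 higher and 1 lower under DESeq2, 2 higher under the correction as used, and 0 without any 1 tumor, where edgeR called 0 to 12 genes in all and 2401 to 3440 had an unadjusted p under 0.05. In all, edgeR called 208 genes, 54.3% of them higher, limma after quantile normalization 81 (67.9%), edgeR with median ratios 277 (43.7%) and DESeq2 1392 (45.5%); no filter gave 311 and the correction 317. The Kmt median moved to 0.17 under the correction and to 0.17 with the replicate block added, and the Chd median to 0.17 at a mean of at least 5 CPM. Members with all H89 values below all NaCl values numbered 4 on the TMM scale, a choice made after seeing the data. The rho of fold change with transcript length over all tested genes was 0.11 to 0.32 with 1 tumor left out, highest without H89 tumor 1. The labels number the tumors and do not say whether equal numbers pair them. Deviations of equal numbers correlated at 0.164, 0.0629 and -0.0256. With the replicate block edgeR called 0 members (Kmt2d 0.52, adjusted p = 0.0640) and 0 genes (3750 at an unadjusted p under 0.05), likewise 0 with the correction added (3671). The causes were not tested. Small differences may be missed with 3 tumors a group, and what size could be detected was not tested. The SE of the tested members ran from 0.07 (Arid2) to 0.32 (Arid5b).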
